A study of Rattus norvegicus with 14 samples.

Results

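Cytochrome P450 genes of rat liver, together with their electron donor Por, were followed across diets that differed in magnesium. The members were the probe sets whose platform annotation gave a single gene symbol that starts with Cyp and a digit, and those of Por. 10 genes were left out by name: Cyp2c11, Cyp2c12, Cyp2c13, Cyp3a2, Cyp4a1, Cyp4a2, Cyp4a3, Cyp7a1, Cyp8b1 and Cyp27a1. That left 71 probe sets of 42 genes, out of 8740 probe sets other than controls. Of these members, 55 probe sets of 34 genes passed a filter on dim signals and were tested, among 5133 probe sets tested in all. The other 8 genes were dim: Cyp11a1, Cyp11b2, Cyp19a1, Cyp1b1, Cyp26b1, Cyp2b12, Cyp2g1 and Cyp4f5.

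RNA came from the left lateral lobe of the liver and was hybridised to an Affymetrix rat oligonucleotide array, on which short probes grouped into probe sets give 1 signal each. There were 14 arrays: 5 from a magnesium-supplemented diet, 5 from a standard diet and 4 from a magnesium-deficient diet. The titles number the arrays from 1 to 14 (supplemented 1 to 5, standard 6 to 10, deficient 11 to 14), and these numbers name the arrays here. The labels used here name no strain, sex, age, magnesium content or time on the diet, and do not say that each array is a separate animal, so p-values measure the spread between these arrays only. Signals are on a log2 scale, on which a difference of 1 is a factor of 2.

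P450 enzymes are heme proteins of the endoplasmic reticulum and mitochondria that insert an oxygen atom into fats, steroids, bile acids, drugs and other foreign compounds. Members of the early-numbered families mostly clear drugs and foreign chemicals and are switched on through ligand-binding receptors: the aryl hydrocarbon receptor for Cyp1a, the constitutive androstane receptor for Cyp2b and the pregnane X receptor for Cyp3a. Family 4 hydroxylates fatty acids and eicosanoids, and higher-numbered families make or break down steroids, vitamin D and sterols.

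The Cyp3a promoters are shown because Cyp3a18 and Cyp3a23-3a1 went together over arrays, as described further on. Pairs of the half-site AGTTCA are among the sites read by the pregnane X receptor. Each line holds the 250 bases before the gene's start, from RefSeq on build GRCr8, written 5′ to 3′ on the strand of the gene, with half-sites on either strand in capitals. They lie on chromosome 12.
Cyp3a23-3a1 (chr12:14398804-14399053, minus strand): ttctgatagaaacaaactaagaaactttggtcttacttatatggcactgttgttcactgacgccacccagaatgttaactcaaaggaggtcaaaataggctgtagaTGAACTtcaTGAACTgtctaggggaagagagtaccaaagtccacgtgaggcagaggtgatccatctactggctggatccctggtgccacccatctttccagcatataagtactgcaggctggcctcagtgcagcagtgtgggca
Cyp3a18 (chr12:13994062-13994311, plus strand): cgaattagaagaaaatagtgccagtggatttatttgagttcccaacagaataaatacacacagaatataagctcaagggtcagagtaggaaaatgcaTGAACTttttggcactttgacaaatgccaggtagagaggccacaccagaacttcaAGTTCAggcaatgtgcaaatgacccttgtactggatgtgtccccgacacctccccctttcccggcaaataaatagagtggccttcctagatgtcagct
Cyp3a9 (chr12:21960161-21960410, minus strand): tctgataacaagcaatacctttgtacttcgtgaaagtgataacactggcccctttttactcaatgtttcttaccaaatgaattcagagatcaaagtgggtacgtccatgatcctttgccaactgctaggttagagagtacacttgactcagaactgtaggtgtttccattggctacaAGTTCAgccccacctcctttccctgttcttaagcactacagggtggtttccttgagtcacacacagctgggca
The Cyp3a23-3a1 window held 2 half-sites, which together form the repeat AGTTCANNNAGTTCA, read on the reverse strand as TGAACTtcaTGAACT, 144 to 130 bases before the start. Cyp3a18 had 2 half-sites, at 153 to 148 and 98 to 93 bases before its start, and Cyp3a9 had 1, at 73 to 68 bases. Of 33469 promoter windows of this length, 12.2% held AGTTCA on either strand and 0.00598% held the spaced repeat, which also counts as AGTTCA. A match is an exact stretch of letters, other forms of the half-site were not searched, and binding was not measured.

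No member passed the threshold of an adjusted p under 0.05 in any comparison of diets (limma's moderated test, with Benjamini-Hochberg adjustment over all 5133 probe sets tested). Over all probe sets the share called was 0% for supplemented against standard, 0% for deficient against standard and 0.0195% for deficient against supplemented, and it was 0.0195% in the F-test over the 3 diets. At an unadjusted p under 0.05, 5 of 55 member probe sets stood out between supplemented and standard (9.09%, beside 8.88% of all): 1 was higher, beside 4.15% of all, and 4 (7.27%) were lower, beside 4.73%. For deficient against standard it was 1 of 55 (1.82%, beside 3.04%), which was lower, beside 1.71% of all; none was higher, beside 1.32%. For deficient against supplemented it was 5 of 55 (9.09%, beside 13.0%), with 1 higher (1.82%, beside 6.86%) and 4 lower (7.27%, beside 6.18%). In the F-test it was 3 of 55 (5.45%, beside 9.00%). Without regard to direction the members' shares were close to or below those of all probe sets tested. In deficient against standard the share of lower members, from 1 probe set, was just above that of all. The share exceeded that of all by more in supplemented against standard and in deficient against supplemented, at 4 probe sets each. For the supplemented diet these last 2 go opposite ways, with members lower on it in the first and higher on it in the second. With 4 of 55 in each, no trait of the members was read from them. Below, diet means ± SD are given in the order supplemented, standard, deficient (n = 5, 5 and 4). The 2 comparisons with the standard diet share its arrays, so their values are set side by side and not counted as agreement.

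**Figure D1:**
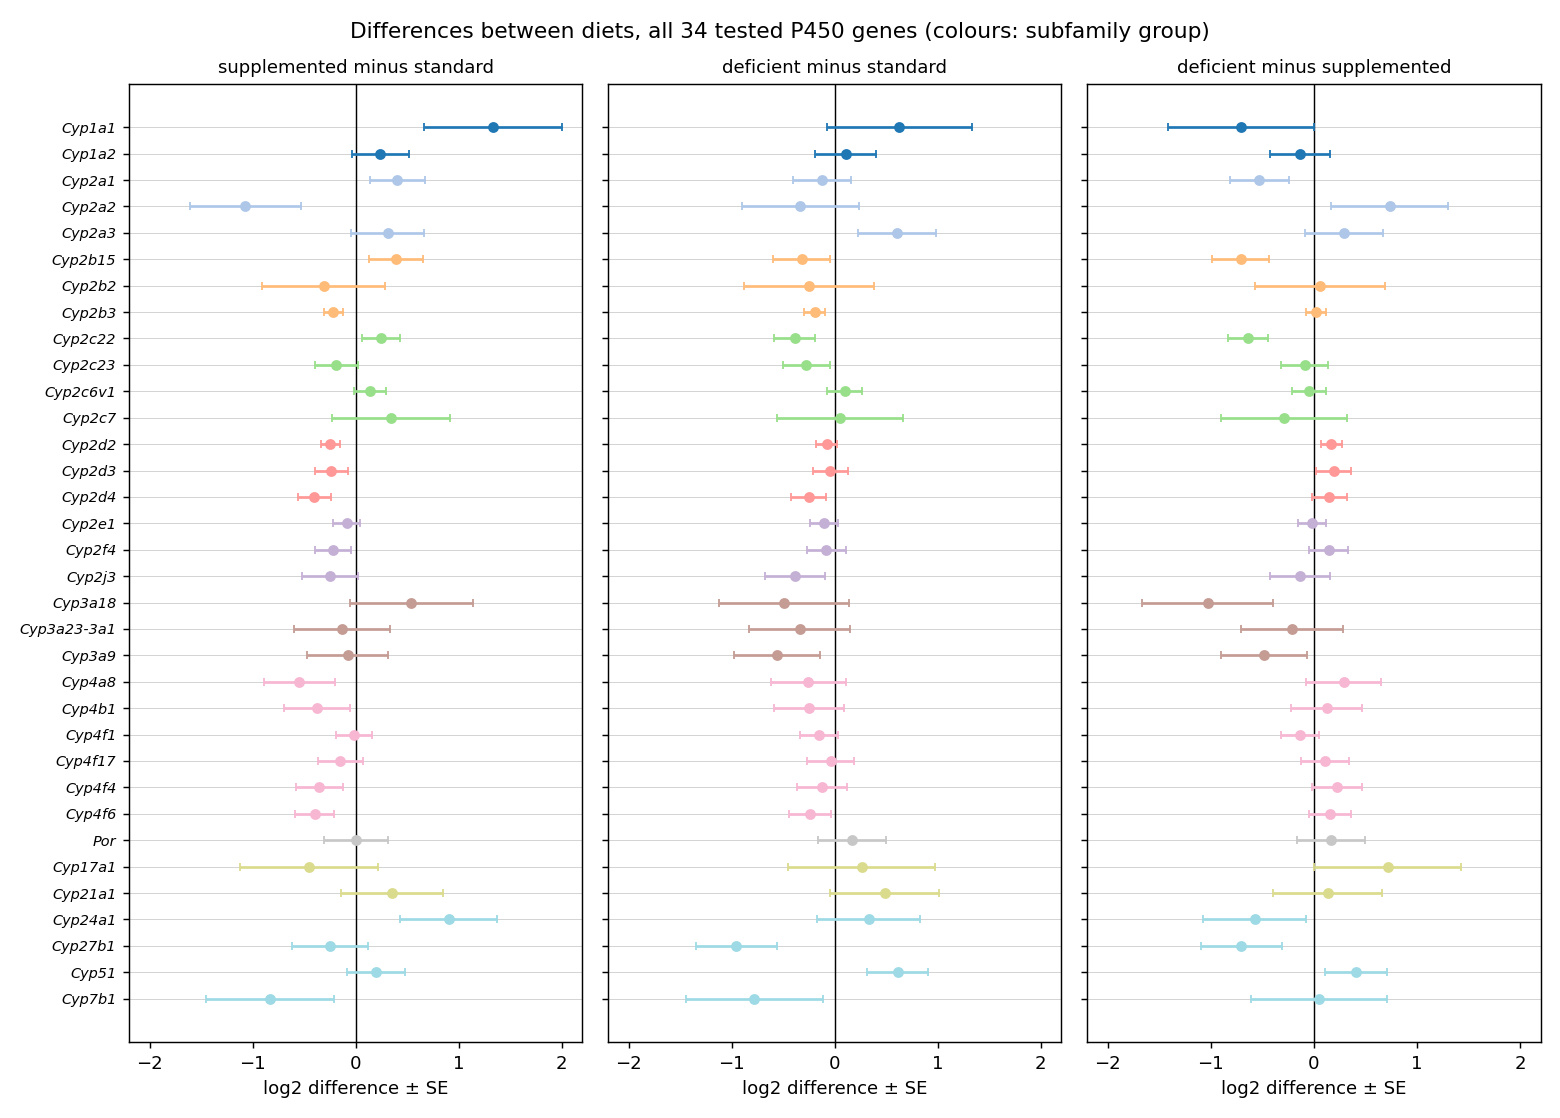
Log2 differences between diets (x axis, with the SE of the limma fit) for the 34 tested genes (y axis), each by its brightest probe set, coloured by subfamily group. Values lie on both sides of 0 in each comparison, from -1.07 for Cyp2a2 to 1.33 for Cyp1a1 in supplemented minus standard, and no gene passed the adjusted threshold.

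Over the 34 genes, each read by its brightest probe set, the median log2 difference was -0.139 between supplemented and standard, with 13 genes higher and 21 lower. All 3073 genes tested had a median of -0.034 in that comparison, with 45.1% higher. Between deficient and standard the members' median was -0.138, with 10 higher and 24 lower, beside 0.013 and 52.8% higher over all genes. Between deficient and supplemented it was 0.036, with 18 higher and 16 lower, beside 0.055 and 56.3%. With arrays centred on their medians in place of quantile normalisation, the members split 9 higher to 25 lower, 12 to 22 and 26 to 8 in the 3 comparisons, and all genes shifted to medians of -0.129, 0.075 and 0.209.

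The 3 diets also differed in the control probe sets that read RNA quality, and these values touch each result below. The log2 ratio of the 3′ to the 5′ signal of Gapdh, which rises as RNA is degraded, ran from -0.116 to 1.12 on supplemented arrays, from 1.04 to 2.65 on standard arrays and from 1.12 to 2.68 on deficient arrays. Supplemented 5, standard 10 and deficient 13 stood apart from the other arrays of their diet. With the Gapdh ratio in the model, 1, 1 and 0 member probe sets had an unadjusted p under 0.05 in the 3 comparisons, in place of 5, 1 and 5. Over all 5133 probe sets tested the counts also fell, to 132, 141 and 113 from 456, 156 and 669. The same ratio of beta-actin ran from 0.768 to 1.29 on supplemented, 0.773 to 2.63 on standard and 0.853 to 2.85 on deficient arrays. On supplemented 5 it was the highest of that diet, where the Gapdh ratio was the lowest. With the beta-actin ratio in the model instead, the member counts were 6, 0 and 3, and those over all probe sets 245, 167 and 244. Of the 10 hepatocyte markers 9 were tested, with median differences of -0.020, -0.010 and 0.011. Of 6 tested Kupffer cell or macrophage markers, 6 were higher with the supplement than with the standard diet (Clec4f by 0.37, unadjusted p 0.0294). Mean levels of that list, relative to all arrays, ran from -0.376 to 0.471 on supplemented, -0.385 to 0.155 on standard and -0.250 to 0.182 on deficient arrays. For 4 tested pancreas markers they ran from -0.262 to 0.637, -0.153 to 0.412 and -0.550 to -0.059. The part of RNA quality or of other cell types in the P450 values was not tested. In bulk RNA, fewer cells of a type and less RNA per cell cannot be told apart.

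Cyp2c22, a hepatic enzyme of the 2C subfamily, had the smallest F-test p among the members' brightest probe sets (0.0179, adjusted 0.471 by limma). Its signals were 11.17, 11.36, 10.64, 11.38 and 11.56 on supplemented arrays, 10.89, 10.86, 10.63, 11.54 and 10.94 on standard arrays and 10.48, 10.83, 10.44 and 10.58 on deficient arrays. The deficient arrays were all at or below 10.83, and supplemented 3 and standard 8 fell among them, so the diets overlapped. The difference between deficient and supplemented was -0.64 ± 0.20 (SE; unadjusted p 0.00531, adjusted p 0.264 by limma). It was -0.371 with arrays centred on their medians and -0.425 ± 0.254 with the Gapdh ratio in the model (unadjusted p 0.116 by limma). It was -0.39 ± 0.20 between deficient and standard (unadjusted p 0.0657, adjusted p 0.999 by limma), or -0.249 without standard replicate 9.

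The other 2C members are abundant liver enzymes, and none had an F-test p under 0.4 by its brightest probe set. Cyp2c6v1 had diet means of 11.76 ± 0.16 (SD, n = 5) on supplemented, 11.61 ± 0.33 (n = 5) on standard and 11.71 ± 0.26 (n = 4) on deficient arrays (F-test p 0.659 by limma). Its other tested probe set had means of 10.80 ± 0.36, 10.09 ± 0.96 and 10.00 ± 0.64 (F-test p 0.129 by limma). There deficient minus supplemented was -0.79 ± 0.42 (SE, unadjusted p 0.0759, adjusted p 0.424 by limma). The correlation of these probe sets within diets was 0.432. Cyp2c7, which oxidises retinoids and is known for higher levels in female than in male rats, ran from 9.46 to 12.13 on supplemented, 9.35 to 12.44 on standard and 10.61 to 11.72 on deficient arrays. Its low values lay on supplemented 5, standard 10 and deficient 13, the arrays that stood apart. Cyp2c23, which makes epoxides of arachidonic acid, had means of 11.58 ± 0.55, 11.76 ± 0.14 and 11.49 ± 0.28. Its second probe set gave a lower F-test p (0.0688), with a difference of -0.41 ± 0.18 between deficient and supplemented (unadjusted p 0.0348, adjusted p 0.367 by limma). The 3 tested probe sets did not go together over arrays: their correlations within diets ran from -0.391 to 0.115 (14 arrays). All 4 genes of this group had a negative difference between deficient and supplemented (median -0.189), but only 1 of 4 was negative with arrays centred on their medians, 3 of 4 in the values as deposited and 2 of 4 with the Gapdh ratio in the model.

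Cyp2d2, Cyp2d3 and Cyp2d4 belong to the 2D subfamily, which metabolises many basic drugs and does not respond to the usual inducers. All 3 were lower with the supplement than with the standard diet, under each of the 3 scalings. Cyp2d2 read 12.27, 12.03, 12.29, 12.02 and 11.99 on supplemented arrays, 12.33, 12.31, 12.46, 12.31 and 12.41 on standard arrays and 12.04, 12.23, 12.44 and 12.44 on deficient arrays. Every supplemented array lay below every standard array, while the deficient arrays spanned both. This was the only one of 55 member probe sets without overlap in that comparison (1.82%), where 1.81% of all probe sets had none; between deficient and standard it was 0 of 55, beside 1.44%. The difference was -0.25 ± 0.10 (SE; unadjusted p 0.0213, adjusted p 0.499 by limma), -0.20 ± 0.12 with the Gapdh ratio in the model and -0.565 with arrays centred on their medians. For deficient against supplemented it was 0.17 ± 0.10 (adjusted p 0.480 by limma), and from 0.083 to 0.458 over the alternatives.

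Cyp2d4, the 2D member also known from brain, had signals of 7.93, 8.09, 8.19, 7.96 and 8.59 on supplemented, 8.55, 8.62, 8.37, 8.39 and 8.85 on standard and 8.42, 8.33, 8.36 and 8.11 on deficient arrays. Only supplemented 5 reached the range of the standard arrays. The difference between supplemented and standard was -0.40 ± 0.16 (SE; unadjusted p 0.023, adjusted p 0.501 by limma). For Cyp2d3 the diet means were 11.00 ± 0.36, 11.23 ± 0.23 and 11.19 ± 0.07 (F-test p 0.321 by limma).

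**Figure D2:**
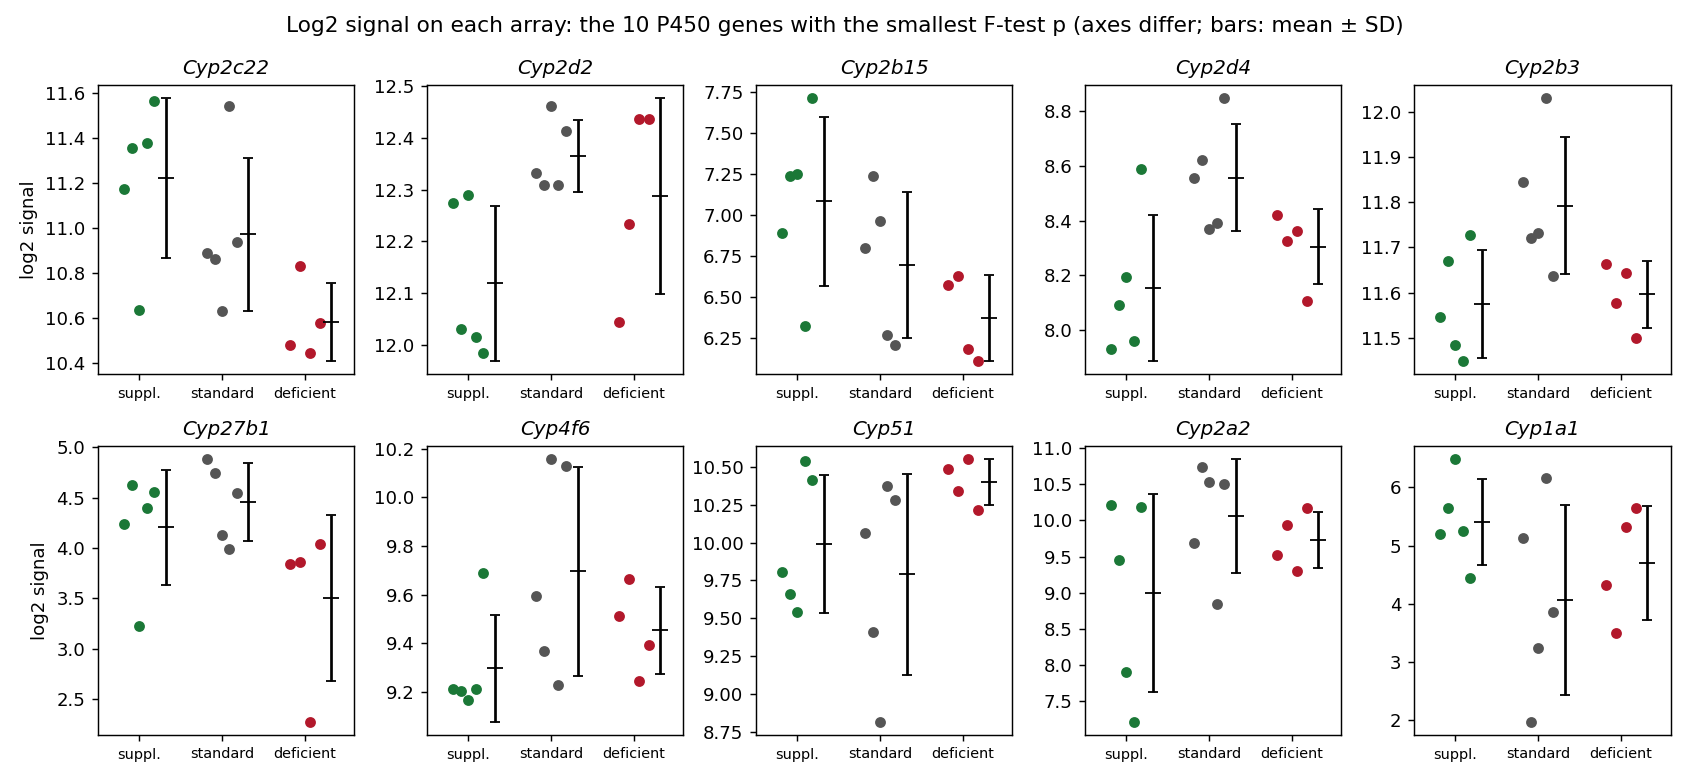
Log2 signal (y axis, a scale of its own in each panel) on every array of the 3 diets (x axis) for the 10 genes with the smallest F-test p. Points are arrays, and bars are the mean and SD of the diet. For Cyp2d2 the 5 supplemented points lie below the 5 standard points, and in the other panels the supplemented and standard points overlap.

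The 2B subfamily holds the classical targets of phenobarbital. Its genes are similar, and their probe sets may read each other's transcripts, which was not tested. Cyp2b15 read 6.89, 7.24, 7.25, 6.32 and 7.72 on supplemented arrays, 6.80, 7.24, 6.96, 6.27 and 6.21 on standard arrays and 6.57, 6.63, 6.19 and 6.11 on deficient arrays. The deficient arrays lay in the lower part of the range, with supplemented 4 among them. The difference between deficient and supplemented was -0.71 ± 0.28 (SE; unadjusted p 0.0223, adjusted p 0.332 by limma) and was -0.337 with the Gapdh ratio in the model. Cyp2b2, one of the main phenobarbital-inducible enzymes, varied by more than 3 log2 units between arrays, with ranges of 6.91 to 9.76, 7.28 to 10.27 and 7.09 to 9.44. Its diet means were 8.33 ± 1.13, 8.64 ± 1.08 and 8.39 ± 1.00 (F-test p 0.863 by limma), which differ by less than the spread within each diet. Its other tested probe set had means of 8.22 ± 0.54, 7.91 ± 0.68 and 7.56 ± 0.20 (F-test p 0.161 by limma). Deficient minus supplemented was -0.67 ± 0.33 there (SE, unadjusted p 0.0604, adjusted p 0.411 by limma), against 0.06 ± 0.63 by the brightest. With the Gapdh ratio in the model the former was -0.385.

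Cyp2b3, a 2B gene that is expressed without an inducer, had the narrowest spread within diets of all members (SD 0.123). Its brightest probe set gave 11.55, 11.67, 11.49, 11.45 and 11.73 on supplemented, 11.84, 11.72, 11.73, 12.03 and 11.64 on standard and 11.66, 11.58, 11.64 and 11.50 on deficient arrays. The differences from the standard diet were -0.22 ± 0.09 for supplemented (unadjusted p 0.0347, adjusted p 0.517 by limma) and -0.20 ± 0.10 for deficient (unadjusted p 0.0663, adjusted p 0.999 by limma). Both turned in sign, to 0.506 and 0.303, when its 3 tested probe sets were averaged, and the first was -0.450 with arrays centred on their medians. The other 2 probe sets gave 0.68 ± 0.92 and 1.05 ± 0.50 for supplemented minus standard, and on standard 10 they read 1.97, the floor, and 5.60.

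The 2A subfamily hydroxylates steroids such as testosterone, and its members went different ways. Cyp2a1 read 11.08, 10.55, 10.95, 10.47 and 10.59 on supplemented, 10.90, 10.42, 10.19, 10.65 and 9.45 on standard and 10.00, 10.01, 9.77 and 11.01 on deficient arrays. Of the 4 deficient arrays, 3 lay below every supplemented array and deficient 14 lay near the top. The difference between deficient and supplemented was -0.53 ± 0.28 (SE; adjusted p 0.431 by limma). It turned to 0.115 with the Gapdh ratio in the model and to 0.084 with that of beta-actin, and was -0.227 with arrays centred on their medians.

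Cyp2a2 had one of the widest spreads. Its signals were 10.21, 9.46, 7.90, 7.22 and 10.19 on supplemented, 9.69, 10.74, 10.53, 8.85 and 10.5 on standard and 9.52, 9.93, 9.30 and 10.17 on deficient arrays. Supplemented 3 and 4 stood low, and the next lowest array was standard 9 (F-test p 0.162 by limma). Cyp2a3, better known from lung and nose, was dimmer, with 4.59, 4.46, 4.76, 4.17 and 4.40 on supplemented, 3.66, 4.55, 4.92, 4.79 and 2.90 on standard and 5.48, 4.60, 4.49 and 4.51 on deficient arrays. The difference between deficient and standard was 0.60 ± 0.38 (SE, adjusted p 0.999 by limma), and it was 0.289 without standard replicate 10. Another Cyp2a3 probe set was at the floor on 3 supplemented, 5 standard and 3 deficient arrays (mean 2.04) and was not tested.

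Cyp1a1 and Cyp1a2 are the targets of the aryl hydrocarbon receptor; Cyp1a1 is low in liver until induced, and Cyp1a2 is made constitutively. Cyp1a1 had the largest difference among the brightest probe sets. Its signals were 5.19, 5.64, 6.49, 5.26 and 4.45 on supplemented arrays, 5.14, 1.97, 3.23, 6.16 and 3.86 on standard arrays and 4.33, 3.49, 5.32 and 5.65 on deficient arrays. Standard arrays spanned nearly the whole range, with standard 7 at the floor of 1.97. Supplemented minus standard was 1.33 ± 0.67 (SE; unadjusted p 0.0639, adjusted p 0.559 by limma), and it ran from 0.808 without standard replicate 7 to 1.85 without standard replicate 9. Cyp1a2 had means of 10.45 ± 0.31, 10.21 ± 0.67 and 10.32 ± 0.37 (F-test p 0.693 by limma). Its 3 tested probe sets went together within diets, with correlations of 0.761 to 0.934. From the brightest down, their supplemented minus standard differences were 0.24 ± 0.28, 0.13 ± 0.54 and 0.92 ± 0.54 (SE). The last had an unadjusted p of 0.108 and an adjusted p of 0.634 (limma).

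Whether genes of 1 subfamily went together over the 14 arrays, once the diet means were taken out, was examined in 25 pairs of genes. The pairs had a median correlation of 0.014, and 13 of 25 were positive. Cyp3a18 with Cyp3a23-3a1 was the 1 pair past the adjusted threshold, described with the 3A subfamily. Pairs of genes from different subfamilies were not examined, so no background over such pairs is given. For comparison, 35 pairs of probe sets of the same gene, from 11 genes, had a median of 0.615. For Cyp1a1 and Cyp1a2, Pearson's r was 0.764 (permutation within diets, two-sided, p 0.0156, adjusted over 25 pairs 0.195) and Spearman's rho was 0.631 (permutation p 0.0503, adjusted 0.629). Without standard 7 and 9, the arrays farthest out in Cyp1a1, r was 0.545, so the relation leaned on them.

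**Figure D3:**
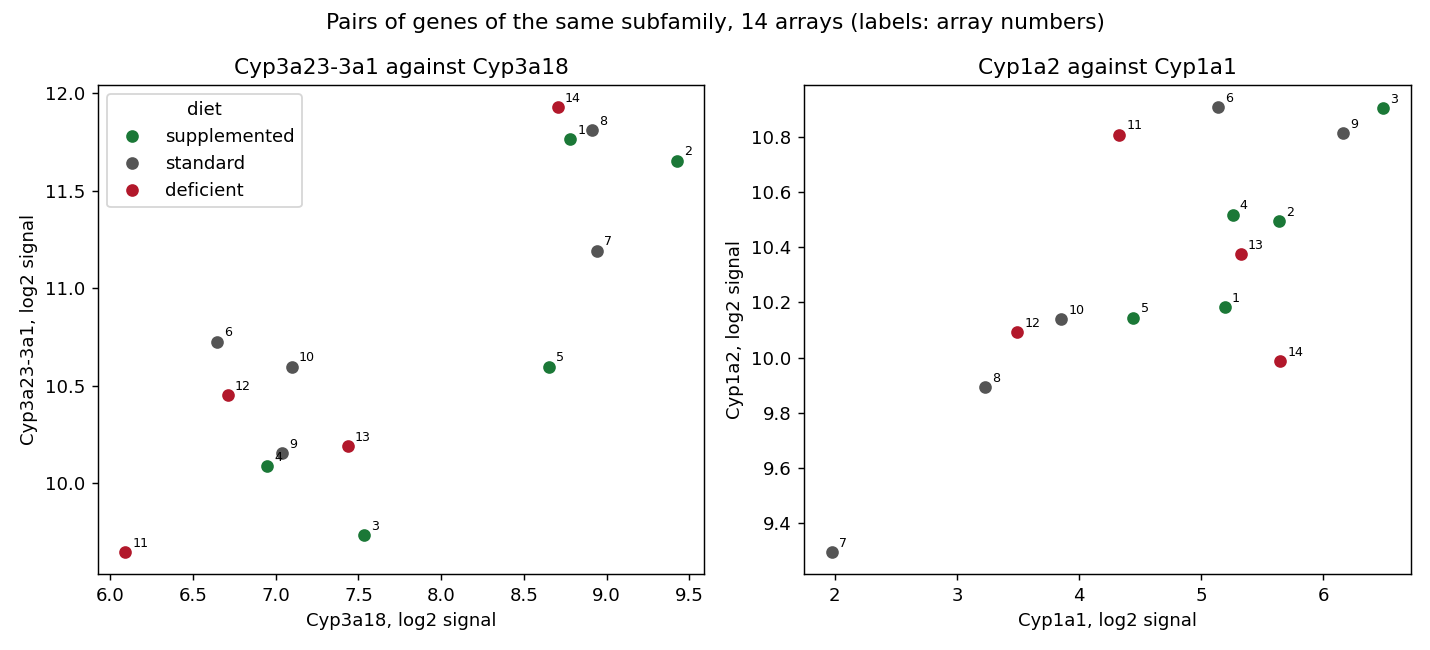
Log2 signals of Cyp3a23-3a1 against Cyp3a18 (left) and of Cyp1a2 against Cyp1a1 (right) on the 14 arrays, labelled by array number and coloured by diet. On the left 6 arrays with Cyp3a18 at 8.65 or more stand apart from 8 arrays at 7.54 or less, and each side holds all 3 diets.

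The 3A subfamily, the main drug-clearing P450 enzymes of the liver, held the 1 pair, of those examined within subfamilies, that went together past the threshold. Cyp3a18 read 8.78, 9.42, 7.54, 6.95 and 8.65 on supplemented, 6.64, 8.94, 8.91, 7.04 and 7.10 on standard and 6.09, 6.71, 7.44 and 8.70 on deficient arrays. Cyp3a23-3a1, the inducible 3A enzyme of rat liver, read 11.77, 11.65, 9.73, 10.08 and 10.60, then 10.72, 11.19, 11.81, 10.15 and 10.60, then 9.65, 10.45, 10.19 and 11.93 on the same arrays. A gap of 1.12 in Cyp3a18 set 6 arrays (3 supplemented, 2 standard, 1 deficient) apart from 8 (2, 3 and 3). On the 6 arrays Cyp3a23-3a1 ran from 10.60 to 11.93 and on the 8 from 9.65 to 10.72. Once diet means were taken out, Pearson's r was 0.853 over the 14 arrays (permutation within diets, two-sided, p 0.00098, adjusted over 25 pairs 0.0245) and Spearman's rho was 0.846 (permutation p 0.00137, adjusted 0.0343). It was 0.833 without standard 7 and deficient 14, the arrays farthest out in Cyp3a18. The call was lost without the 3 arrays that stood apart (r 0.891, adjusted permutation p 0.174) and with supplemented 5, standard 8 or deficient 14 left out singly (adjusted permutation p 0.0502, 0.0677 and 0.0682). It was also lost when either of the 2 dimmest probe sets of Cyp3a23-3a1 stood for the gene (r 0.493 and 0.706). This pair was picked after its values were seen, and probe sets of such similar genes may read each other's transcripts. Supplemented 3 and 4 were the lowest supplemented arrays for both genes, and also for Cyp2a2 and Cyp7b1, of other subfamilies. The pattern over arrays is thus not shown to be particular to 3A.

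Cyp3a9 ran from 4.39 to 6.92 on the 6 arrays and from 5.05 to 6.56 on the 8, and its correlations within diets were -0.077 with Cyp3a18 and 0.179 with Cyp3a23-3a1 (adjusted permutation p 0.975 for both). By diet, its means were 5.73 ± 0.91, 5.80 ± 0.69 and 5.25 ± 0.15 (F-test p 0.388 by limma). The other 2 genes had F-test p of 0.290 for Cyp3a18 and 0.788 for Cyp3a23-3a1 (limma). All 3 genes had a lower mean on deficient than on standard arrays under each of the 3 scalings (median -0.49), and none had an unadjusted p under 0.05.

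Family 4 had 6 tested genes, and 6 of 6 were lower on each of the other diets than on the standard diet. The medians were -0.363 for supplemented and -0.196 for deficient, beside -0.034 and 0.013 over all genes, and no gene had an unadjusted p under 0.05. In the values as deposited, and with the Gapdh ratio in the model, 5 of 6 were lower on the supplemented diet. Cyp4f6, of the 4F branch that breaks down leukotrienes, had signals of 9.21, 9.20, 9.17, 9.21 and 9.69 on supplemented, 9.59, 9.37, 10.16, 9.23 and 10.13 on standard and 9.51, 9.67, 9.24 and 9.39 on deficient arrays. All supplemented arrays but number 5 lay below every standard array, and number 5 lay among them. The difference was -0.40 ± 0.19 (SE; unadjusted p 0.0561, adjusted p 0.547 by limma), and -0.263 with the beta-actin ratio in the model. Cyp4a8, a fatty acid hydroxylase, had means of 7.09 ± 0.49, 7.63 ± 0.71 and 7.38 ± 0.56.

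Cyp2e1, which oxidises ethanol and acetaminophen, had close diet means: 12.52 ± 0.31 on supplemented, 12.61 ± 0.14 on standard and 12.5 ± 0.16 on deficient arrays (F-test p 0.704 by limma), and 1 array, supplemented 5, lay at 11.99. Por, the reductase that passes electrons from NADPH to every microsomal P450, had means of 8.29 ± 0.50, 8.29 ± 0.52 and 8.45 ± 0.59 (F-test p 0.851 by limma). Cyp2f4 and Cyp2j3 had F-test p of 0.455 and 0.416.

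Cyp51 is the sterol demethylase of cholesterol synthesis and the most conserved P450. Its brightest probe set gave 9.81, 9.66, 9.54, 10.54 and 10.41 on supplemented, 10.07, 9.41, 8.81, 10.38 and 10.28 on standard and 10.49, 10.34, 10.55 and 10.22 on deficient arrays. The deficient arrays lay close together near the top of both other ranges. Deficient minus standard was 0.61 ± 0.30 (SE; unadjusted p 0.059, adjusted p 0.999 by limma), or 0.367 without standard replicate 8, and the next 2 probe sets by signal gave 0.45 ± 0.31 and 0.59 ± 0.31.

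The 2 dimmest of its 5 tested probe sets each departed from these in part. The fourth by signal read 7.88, 7.41, 7.14, 7.98 and 7.98 on supplemented, 6.76, 6.23, 5.14, 8.13 and 5.60 on standard and 5.88, 5.78, 5.78 and 7.39 on deficient arrays. Its difference between deficient and supplemented was opposite in sign to that of the brightest (0.41 ± 0.30), at -1.47 ± 0.50 (unadjusted p 0.0104, adjusted p 0.290 by limma). The fifth read 3.63, 4.79, 3.13, 5.01 and 3.21 on supplemented, 4.71, 4.59, 4.68, 5.19 and 4.71 on standard and 5.23, 5.14, 5.29 and 5.01 on deficient arrays. It had the sign of the brightest in both comparisons of the deficient diet, and the opposite one between supplemented and standard (-0.82 ± 0.34, against 0.20 ± 0.28). Its deficient minus supplemented difference was 1.22 ± 0.36 (unadjusted p 0.00404, adjusted p 0.264 by limma), and no deficient array overlapped a supplemented one, as for 4.95% of all probe sets. With the Gapdh ratio in the model these became -0.50 ± 0.57 and 0.85 ± 0.47. Correlations within diets among the 5 probe sets ran from 0.175 to 0.825, so the level of Cyp51 across diets depended on the probe set read.

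**Figure D4:**
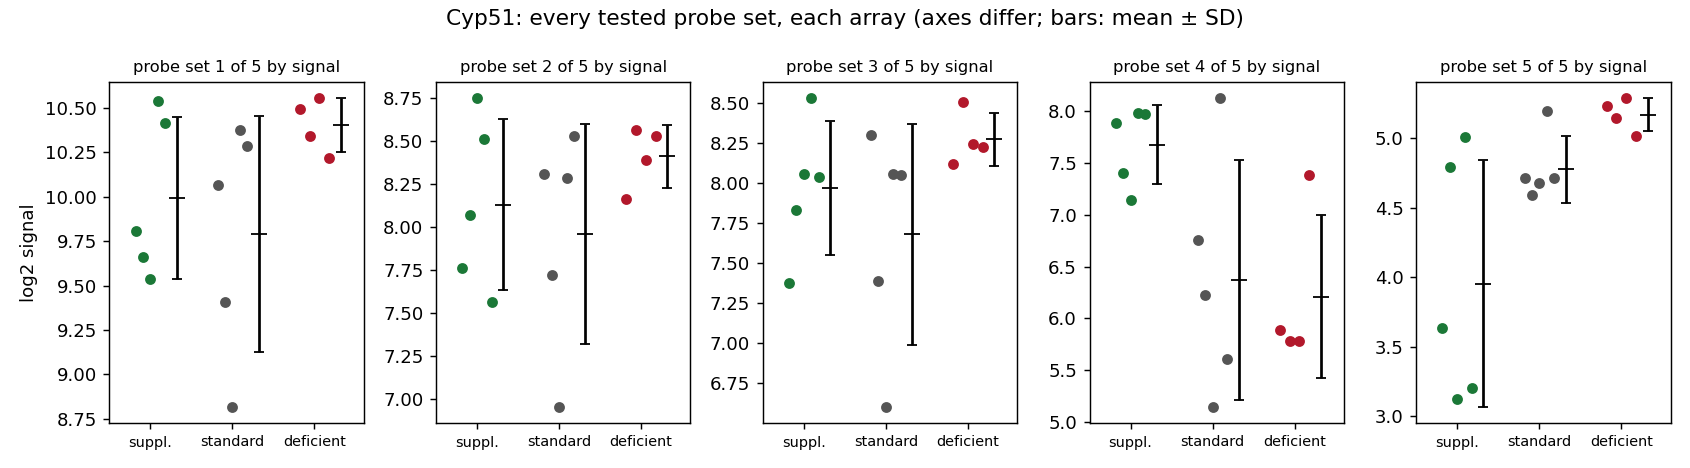
Log2 signal (y axis, a scale of its own in each panel) of the 5 tested probe sets of Cyp51 on every array of the 3 diets (x axis), in order of signal. Points are arrays, and bars are the mean and SD. The first 3 panels have their highest mean on the deficient diet, the fourth has its highest on the supplemented diet, and in the fifth the deficient points lie above all supplemented points.

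Cyp27b1 and Cyp24a1 make and break down the hormone form of vitamin D, mainly in the kidney, and both were dim here. Cyp27b1 read 4.24, 4.62, 3.22, 4.40 and 4.55 on supplemented, 4.89, 4.74, 4.13, 3.99 and 4.54 on standard and 3.84, 3.87, 2.27 and 4.04 on deficient arrays. Of the deficient arrays only number 14 reached the standard range, and number 13 lay far below. Deficient minus standard was -0.95 ± 0.39 (SE; unadjusted p 0.0277, adjusted p 0.999 by limma), and deficient minus supplemented was -0.70 ± 0.39 (adjusted p 0.447 by limma). Without supplemented 5, standard 10 and deficient 13 these were -0.521 and -0.207. Cyp24a1 had means of 5.55 ± 1.06, 4.65 ± 0.84 and 4.98 ± 0.33 (F-test p 0.189 by limma). Supplemented 5 read 7.45, and the other supplemented arrays ran from 4.97 to 5.22. Another Cyp24a1 probe set was at the floor on 4 supplemented, 5 standard and 4 deficient arrays and was not tested.

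Cyp7b1, a hydroxylase of oxysterols and steroids, had means of 5.97 ± 1.30, 6.80 ± 1.14 and 6.02 ± 0.84, and its lowest arrays were supplemented 3 and 4, as for Cyp2a2. Of the steroid-making enzymes only Cyp17a1 and Cyp21a1 passed the filter, with F-test p of 0.597 and 0.634 (limma). Cyp17a1 had the widest spread within diets of all members (SD 1.21). The median of that SD was 0.487 over the 34 member genes and 0.366 over all 3073 genes.

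The proteins that P450 enzymes depend on gave no call either. Of 17 listed partners and heme genes 11 were tested, with 6 higher and 5 lower on the supplemented and on the deficient diet than on the standard diet, and 4 higher and 7 lower between deficient and supplemented. Cyb5a, the cytochrome b5 that feeds electrons to some P450s, had means of 10.63 ± 0.42, 10.16 ± 0.52 and 10.17 ± 0.37. Hmox2, a heme-degrading oxygenase, had 6.46 ± 0.22, 6.54 ± 0.26 and 6.03 ± 0.62, with the smallest p of the list against standard (0.0581 for deficient, adjusted 0.999 by limma). Alas1, which starts heme synthesis, had 9.35 ± 0.41, 9.36 ± 0.54 and 8.93 ± 0.53.

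Among 20 listed receptors and transcription factors 13 were tested. Of these, 5, 6 and 7 were higher in supplemented minus standard, deficient minus standard and deficient minus supplemented. The aryl hydrocarbon receptor, the constitutive androstane receptor and the pregnane X receptor were not among the 13. Nr3c1, the glucocorticoid receptor, had means of 4.91 ± 0.36 on supplemented, 5.74 ± 0.45 on standard and 5.83 ± 0.45 on deficient arrays. Its difference was -0.83 ± 0.26 for supplemented minus standard (unadjusted p 0.00572, adjusted p 0.474 by limma) and 0.91 ± 0.27 for deficient minus supplemented (unadjusted p 0.00452, adjusted p 0.264 by limma). Ppara, a receptor that induces Cyp4a genes, was at 4.07 ± 0.56, 4.76 ± 0.30 and 4.61 ± 0.39 (supplemented minus standard: unadjusted p 0.027, adjusted p 0.510 by limma). Of the Cyp4a genes only Cyp4a8 was a tested member, and Cyp4a1, Cyp4a2 and Cyp4a3 were left out by the rule. A link between Ppara and the family 4 values was not tested.

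Other genes run by the receptors that switch on P450 genes were read as well. Of 21 listed, 12 were tested, with 8, 6 and 4 higher in the 3 comparisons. Gsta3, a glutathione transferase, had means of 8.83 ± 0.63, 7.51 ± 1.32 and 8.46 ± 0.59 (supplemented minus standard 1.32 ± 0.52, adjusted p 0.501 by limma). Aldh3a1, an aldehyde dehydrogenase switched on with Cyp1a1, had 4.92 ± 0.33, 4.62 ± 0.47 and 4.17 ± 0.24 (deficient minus supplemented -0.76 ± 0.26, adjusted p 0.302 by limma). Of the 10 P450 genes left out by the rule 8 were tested, and by their brightest probe sets none was called or had an unadjusted p under 0.05.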

How the data were processed

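Liver RNA of 14 arrays was compared between 3 diets, read from the sample titles. The authors deposited an intensity for each probe set, on a linear scale. Their software and its settings are not named in the labels. In that table the mean of every array, after trimming 2% at each end, was about 150.3 units, so a common scaling had been applied. Array medians still differed by up to 1.91 times, above the limit of 1.5, so log2 signals were quantile normalised. They were raised to a floor at the 20th percentile (3.93 units), and probe sets with a mean above the 40th percentile (14.3 units) were tested. Gene symbols came from the platform annotation; 13 probe sets with several symbols, a P450 among them, were not members. All 42 symbols are in the current rat table, and 26 of 34 tested genes had a promoter entry. 1 limma model (limma 3.58.1, R 4.3.3; lmFit, eBayes with trend) held the 3 diets, with p-values adjusted by Benjamini-Hochberg. It was tested on simulated data. Permutations numbered 100000.

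The members and the gene lists were chosen with earlier results of these data known. Genes picked by rule were the 10 with the smallest F-test p and the 5 with the smallest p in each comparison. The 6 brightest were added, with Cyp1a1, Cyp1a2, Cyp2b2, Cyp2e1, Cyp3a23-3a1, Cyp51 and Por as fixed choices. Some of these are given by diet means or ranges only, and not by every probe set. Alternatives were other scalings, floors, filters and probe set rules, array weights, no trend, only the 2 diets compared, RNA quality covariates, and arrays left out.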

Additional observations from a re-analysis of the deposited data

Results flagged for a closer look

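Among the 20 genes picked by rule, each diet was searched for 1 array far from the others by Dixon's test at the 95% level. Of 60 groups, 9 passed. Chance passes about 1 of 20 groups when these are independent and normally distributed. The groups here come from the same arrays and some genes were picked by p, so no excess over chance was read. The share over all genes was not computed. Supplemented 5 stood out for 3 genes. It was low for Cyp2c7 (9.46, nearest array 12.0) and Cyp2e1 (11.99, nearest 12.52), and high for Cyp4f6 (9.69, nearest 9.21). Cyp27b1 had a low array on the supplemented diet (number 3, at 3.22, nearest 4.24) and on the deficient diet (number 13, at 2.27, nearest 3.84). Cyp2c23 was low on supplemented 1 (10.6, nearest 11.6) and on deficient 14 (11.1, nearest 11.6). Cyp2a3 was high on deficient 11 (5.48, nearest 4.60). Por was low on standard 7 (7.38, nearest 8.40). Supplemented 5 and deficient 13 are among the 3 arrays that stood apart by their Gapdh ratio or rank correlation.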

How the results depend on the processing

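No member probe set was called under any alternative, of which 26 were run for each comparison and 25 for the F-test. The median over member genes moved beyond its spread between arrays in 4 of 78 cases: for supplemented minus standard to -0.315 with arrays centred on their medians and to -0.0170 with probe sets of a gene averaged, and for deficient minus supplemented to 0.217 and -0.128 under the same settings. With 1 array left out, the medians ran from -0.182 to -0.0454, from -0.182 to -0.104 and from -0.0621 to 0.0636 in the order of the report. Of the recomputed differences among the 5 smallest p of each comparison, 382 kept their direction and 4 turned: Cyp2b3 to 0.506 (supplemented minus standard) and 0.303 (deficient minus standard) with probe sets averaged, and Cyp2a1 (deficient minus supplemented) to 0.115 and 0.0839 with the Gapdh and beta-actin ratios in the model. For each of these the cause was not tested. In the remaining comparisons of the same 20 genes 1070 kept their direction and 95 turned. For 2 correlations the alternatives were chosen after seeing the data. That of Cyp3a18 and Cyp3a23-3a1 stayed past the threshold in 17 of 23. It missed it without the 3 arrays that stood apart (r 0.891) and with either of the 2 dimmest probe sets of Cyp3a23-3a1 (r 0.493 and 0.706); with 1 array left out r ran from 0.805 to 0.884, and 11 of 14 passed. That of Cyp1a1 and Cyp1a2 had an adjusted p of 0.00725 with arrays centred on their medians (r 0.865) and 0.0394 without deficient replicate 11 (r 0.862). No paired analysis was possible because the array numbers run from 1 to 14 and no number is shared between diets. The number of arrays limits the precision, and dim members such as Cyp27b1 lie near the floor.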
